A study of Homo sapiens with 6 samples.

Results

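FGFR3, NSD2, CCND1, CCND2, CCND3, MAF and MYC are genes that chromosomal rearrangements switch on in multiple myeloma, together with the D cyclins that these rearrangements act on or act through. They were read from every probe set that the array's probe-to-gene table pairs with one of these symbols alone, which gave 28 probe sets for 7 genes, of 44988 probe sets and 18132 genes in all. NSD2 had 12 of them, CCND1 and MAF 4 each, CCND2 3, FGFR3 and CCND3 2 each, and MYC 1. The label on all samples is NCI-H929, a line from human multiple myeloma. A lentivirus meant to lower PRMT5, which dimethylates arginines symmetrically, was carried by the group PRMT5_down, and a control lentivirus by the group control. Each group had 3 arrays, numbered 1 to 3, and the stated aim was to find possible PRMT5 target genes. The constructs are called sponges in the sample titles, whereas a short hairpin RNA vector is named in the protocol, which also calls the comparison cells normal. The transduced cells were selected with puromycin and sorted, and the groups were harvested together.

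Myeloma often begins with a translocation that brings an oncogene under the enhancers of the immunoglobulin heavy chain locus on chromosome 14. The t(4;14) translocation, which NCI-H929 is known to carry, can activate both FGFR3, a receptor tyrosine kinase for fibroblast growth factors, and NSD2 (also written WHSC1 or MMSET), a methyltransferase of histone H3. The translocations t(11;14) and t(6;14) act on CCND1 and CCND3, and t(14;16) acts on MAF, a transcription factor that raises CCND2. D cyclins bind the kinases CDK4 and CDK6, which phosphorylate the retinoblastoma protein and let cells enter S phase, and MYC is a transcription factor of growth genes that is often rearranged later in the disease.

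FGFR3 and NSD2 lie close together on chromosome 4. In the order of protein-coding genes there, SLBP, TMEM129 and TACC3 come before FGFR3, LETM1 lies between it and NSD2, and NELFA follows. The promoters of FGFR3 and NSD2 are shown with that of MAF because the t(4;14) pair had signal above background on every array and MAF on none. RefSeq's promoter table (GRCh38.p14) held 4 of the 7 genes. CCND3, also above background on every array by its brightest probe set, was left out, so the 3 stretches were picked with the signals known. Each stretch below runs from 250 bases before to 50 after a transcription start. Capitals mark matches on either strand to the GC box, which reads GGGCGG, and to the TATA motif, which reads TATAAA, and overlapping matches were each counted.
FGFR3, chr4:1793043-1793342, plus strand: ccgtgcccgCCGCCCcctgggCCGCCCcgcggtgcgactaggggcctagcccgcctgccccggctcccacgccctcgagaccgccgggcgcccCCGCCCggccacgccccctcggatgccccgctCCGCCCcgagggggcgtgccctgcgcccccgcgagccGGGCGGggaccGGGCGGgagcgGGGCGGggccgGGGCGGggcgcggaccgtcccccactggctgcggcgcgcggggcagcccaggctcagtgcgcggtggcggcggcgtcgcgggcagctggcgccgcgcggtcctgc
NSD2, chr4:1871143-1871442, plus strand: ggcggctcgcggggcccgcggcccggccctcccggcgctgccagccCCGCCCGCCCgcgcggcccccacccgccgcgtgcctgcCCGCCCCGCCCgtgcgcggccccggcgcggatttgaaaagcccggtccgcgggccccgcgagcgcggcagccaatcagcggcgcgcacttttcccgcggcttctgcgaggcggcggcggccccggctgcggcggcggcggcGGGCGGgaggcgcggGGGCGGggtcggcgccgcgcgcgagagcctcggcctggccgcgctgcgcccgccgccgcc
MAF, chr16:79600688-79600987, minus strand: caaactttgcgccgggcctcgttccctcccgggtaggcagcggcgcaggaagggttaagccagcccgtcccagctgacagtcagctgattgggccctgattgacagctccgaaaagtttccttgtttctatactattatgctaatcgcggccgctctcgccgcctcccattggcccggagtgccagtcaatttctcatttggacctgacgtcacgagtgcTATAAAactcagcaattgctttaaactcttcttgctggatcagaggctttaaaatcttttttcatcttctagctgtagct
The FGFR3 stretch held 8 matches to the GC box and the NSD2 stretch 6, while the MAF stretch held 0 of these and 1 match to TATAAA. G and C made up 86.3% of the FGFR3 stretch, 86.7% of the NSD2 stretch and 51.7% of the MAF stretch, where the median of all promoters was 58.7%. A GC box was found in 45.0% of the 35116 promoters in the table and TATAAA in 11.5%. The E-box CACGTG, a sequence that MYC and MAX can bind, which reads the same on both strands, had 0 matches in each of the 3 stretches and was found in 7.26% of all promoters. These matches describe the letters only.

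The values are log2 signals per probe set, on which a difference of 1 is a doubling. PRMT5 was lower in PRMT5_down, at 8.63, 9.65 and 9.37 for numbers 1, 2 and 3, against 9.93, 10.35 and 10.30 in the controls of these numbers. The groups did not overlap, and the difference of -0.98 (SE 0.28) did not pass limma over all genes (adjusted p = 1). With the replicate number as a block its 95% interval was -1.25 to -0.70, and it did not pass either (limma adjusted p = 0.21). The 6 arrays had medians between 5.29 and 5.32. Background was set on each array at the 95th percentile of 330 olfactory receptor genes, between 4.90 and 5.02. The labelled cell type, malignant plasma cells, was checked against markers. Of 11 plasma cell markers 3 were above background on all 6 arrays (PRDM1, XBP1 and SDC1) and 7 on none, among them IRF4, CD38, TNFRSF17 and MZB1. All 7 erythroid markers measured were above it on all 6, with GATA1 at a mean of 10.19, KLF1 at 10.30 and ALAS2 at 10.18. Of 5 myeloid markers 2 were above it on all 6 and 3 on none, and of 4 T cell markers 2 and 1. Among the erythroid markers AHSP, a chaperone of alpha globin, read 6.74, 5.85 and 5.39 in controls and 8.75, 7.04 and 6.92 in PRMT5_down, while HBB was lower in each number, by 0.07 on average. The myeloid marker PRG2, a granule protein gene, read 5.68, 7.91 and 7.46 in controls and 7.75, 9.61 and 8.46 in PRMT5_down. Limma called 0 of the markers of any list, and the median difference of the erythroid markers was 0.24. The mean of the erythroid markers lay between 8.65 and 8.92 on control arrays and between 9.06 and 9.33 on PRMT5_down arrays, and that of the plasma cell markers between 4.44 and 4.57 and between 4.38 and 4.52. Most plasma cell markers were thus above background on no array, while every erythroid marker measured was above it, which goes against the labelled cell type. Which cells the arrays hold, and whether they carry the translocation of FGFR3 and NSD2, was not tested. The part of other cells in the results below was not tested either. In bulk samples fewer cells of a type and less RNA per cell cannot be told apart. Nothing in the labels says that the arrays came from separate cultures, and p-values here therefore reflect how far these 6 arrays varied, perhaps for technical reasons alone.

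Measured by its brightest probe set, every gene but MAF was above background on all 6 arrays, 6 of 7, where 56.3% of all genes were. Over the 28 probe sets, 20 were above background on all 6 arrays, 7 on none and 1 on 4 arrays, where 50.9% of all probe sets were above it on all 6. FGFR3, CCND2 and MYC were above background with each of their probe sets. Heights of different probe sets are not on 1 scale, so the genes are set against background and not ranked against each other.

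**Figure D1:**
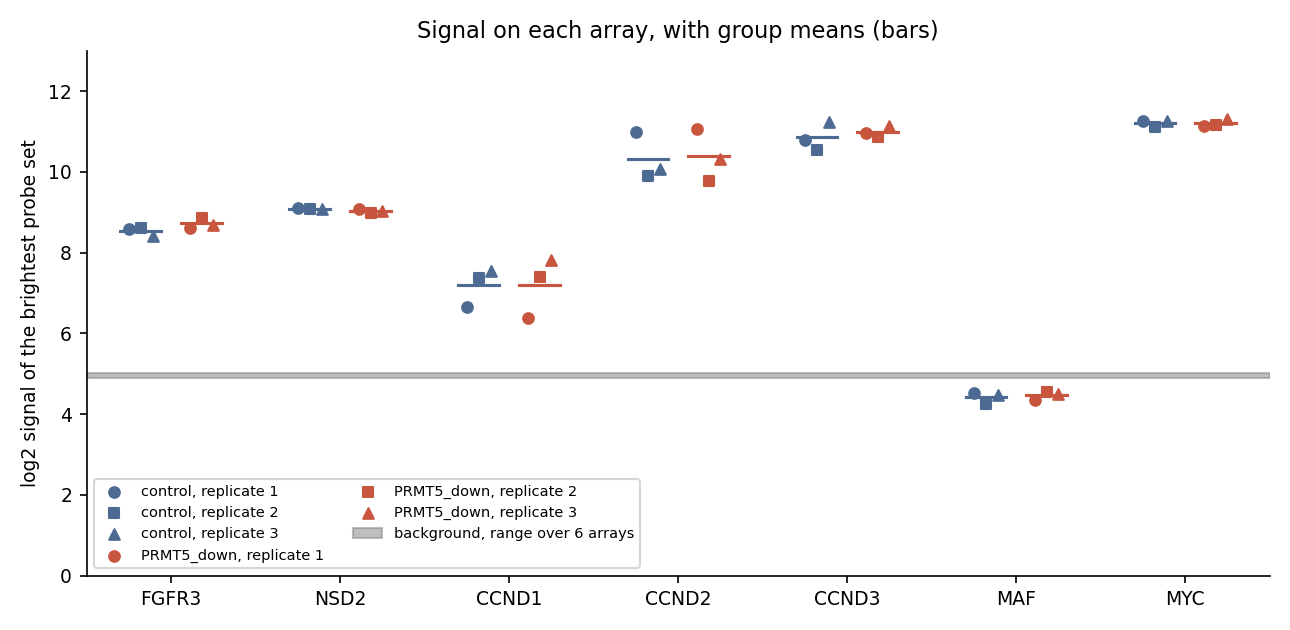
Log2 signal of the brightest probe set of each gene on each array, with control in blue, PRMT5_down in red, marker shape for the replicate number, a bar for the group mean and a grey band for the range of background over the 6 arrays. MAF lies under the band on all 6 arrays, the other 6 genes lie above it, and the groups overlap for every gene.

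FGFR3, the receptor, was above background on every array with both probe sets. The brighter one, 11755786_a_at, read 8.59, 8.62 and 8.41 in controls numbered 1, 2 and 3, where PRMT5_down read 8.62, 8.87 and 8.69. PRMT5_down was higher within each number, by 0.03, 0.25 and 0.28, yet PRMT5_down replicate 1 stood level with control replicate 2, so the groups overlapped. The means were 8.54 ± 0.11 and 8.73 ± 0.13 (SD, n = 3 each). They differed by 0.19 on the log2 scale (SE 0.11, 95% interval -0.08 to 0.45, and -0.02 to 0.39 with the replicate block), which did not pass limma (adjusted p = 1). The dimmer probe set, 11717969_a_at, went the other way, with 5.72, 5.84 and 5.93 in controls and 5.74, 5.74 and 5.79 in PRMT5_down, a difference of -0.07 (SE 0.09). The 2 probe sets of FGFR3 thus gave opposite signs, each within the spread between arrays.

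NSD2, the histone methyltransferase beside FGFR3, had 10 of its 12 probe sets above background on all 6 arrays. Its brightest, 11735832_a_at, was nearly level over the arrays, with 9.10, 9.07 and 9.07 in controls and 9.08, 8.97 and 9.02 in PRMT5_down. The difference was -0.06 (SE 0.08, 95% interval -0.24 to 0.13 without and with the replicate block), lower within each number by 0.02 to 0.10, and did not pass limma (adjusted p = 1). Over the 10 probe sets above background the differences ran from -0.06 to 0.24, and over all 12, 6 were higher and 6 lower. The highest difference, at 11726380_at, came with 6.41, 6.84 and 5.79 in controls and 6.62, 6.71 and 6.43 in PRMT5_down, where control replicate 3 was the lowest of the 6 arrays. The probe set 11726379_a_at was higher by 0.19, 0.17 and 0.19 in numbers 1, 2 and 3, a difference of 0.18 (SE 0.11) that did not pass either (limma adjusted p = 1).

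The probe sets of NSD2 differed among themselves by replicate number. At 11726378_a_at both arrays of number 1 were high, with 8.61 in control and 8.50 in PRMT5_down, against 7.50 and 7.52 in number 2 and 7.39 and 7.70 in number 3. The same held at 11736517_a_at, with 7.09 and 7.07 in number 1 and 6.19 to 6.48 on the other arrays. At 11736518_a_at it was number 3 that was high, with 7.22 and 7.66, against 6.52 to 6.96 elsewhere. These 3 probe sets and 11726380_at passed a limma F test between replicate numbers (adjusted p = 0.0015, 0.0022, 0.028 and 0.040), as did 1 that was not above background, while the other 6 above background did not. Which transcripts of NSD2 each probe set reads was not analysed here.

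**Figure D2:**
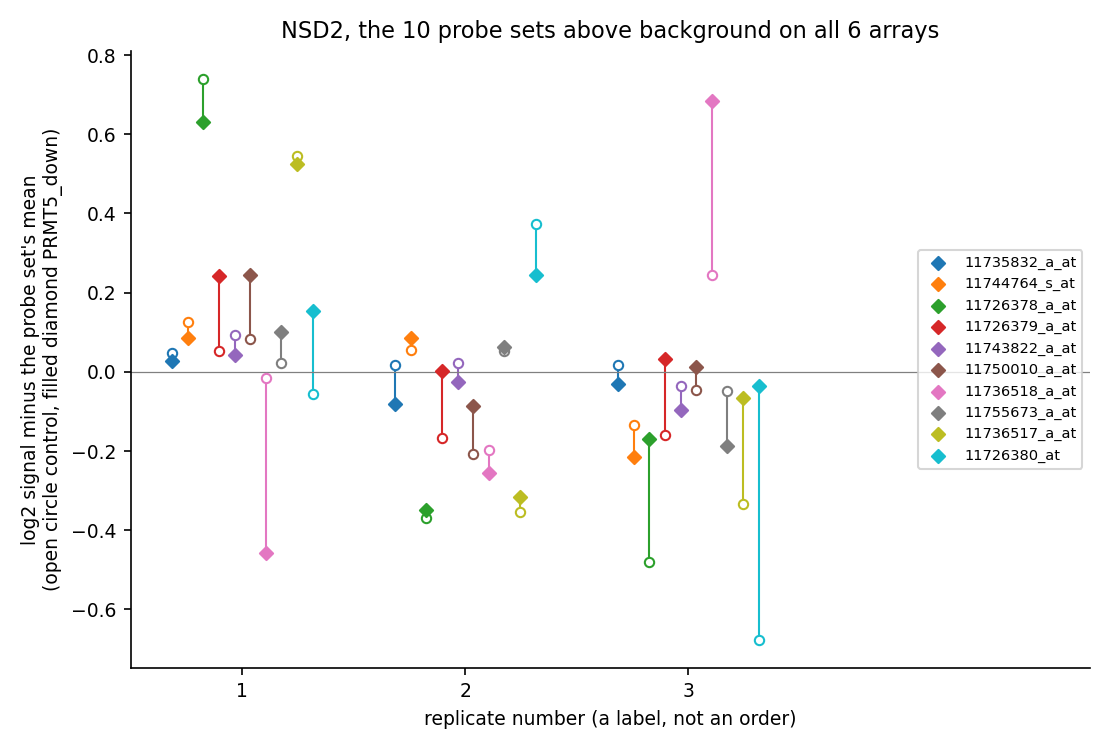
Log2 signal of the 10 NSD2 probe sets above background on all 6 arrays, each minus its own mean, by replicate number, with an open circle for control, a filled diamond for PRMT5_down and a line joining the arrays of a number. The probe sets 11726378_a_at and 11736517_a_at stand high in number 1 and 11736518_a_at in number 3, while 11735832_a_at stays near 0 in all 3.

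CCND1, the D cyclin of t(11;14), was above background on all 6 arrays with 3 of its 4 probe sets and on 4 arrays with the other. Its brightest, 11721255_at, read 6.66, 7.36 and 7.55 in controls and 6.37, 7.39 and 7.82 in PRMT5_down. Both arrays of number 1 were low and both of number 3 high, and the groups overlapped throughout. The difference was 0.00 (SE 0.42, 95% interval -1.01 to 1.02, and -0.26 to 0.27 with the replicate block), with -0.29, 0.03 and 0.27 within numbers 1, 2 and 3, and did not pass limma (adjusted p = 1). The other probe sets differed by 0.19 (SE 0.38), 0.04 (SE 0.29) and 0.18 (SE 0.20). The arrays of number 1 were the lowest at each of the 4 probe sets.

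CCND2, the D cyclin that MAF raises in myeloma, was above background on all 6 arrays with its 3 probe sets. The brightest, 11719198_s_at, read 10.99, 9.90 and 10.08 in controls and 11.07, 9.78 and 10.31 in PRMT5_down. Here both arrays of number 1 were the highest, where those of CCND1 were the lowest, and both of number 2 were the lowest. The difference was 0.06 (SE 0.41, 95% interval -0.95 to 1.07, and -0.15 to 0.28 with the replicate block) and did not pass limma (adjusted p = 1). At 11719197_at PRMT5_down was higher within each number, by 0.41, 0.11 and 0.15, a mean of 0.22 (SE 0.54). At 11719199_a_at it was also higher within each, by 0.44, 0.43 and 0.16, a mean of 0.34 (SE 0.40). The latter probe set read 6.23, 5.05 and 5.70 in controls and 6.67, 5.48 and 5.86 in PRMT5_down. Its signal in control replicate 2 was close to the background of that array, 4.91. With the replicate number as a block these 2 probe sets had 95% intervals of 0.01 to 0.44 and 0.13 to 0.56. Their unadjusted limma p was 0.042 and 0.0058, and neither passed over all probe sets (adjusted p = 0.56 and 0.49). They are dimmer than the brightest, which moved by 0.08, -0.12 and 0.23 within the numbers. All 3 mean differences were above 0 and the intervals with the block overlapped, but that of the brightest included 0.

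CCND3, the D cyclin of t(6;14), was bright with 11754434_a_at and under background on all 6 arrays with its other probe set, at 2.91 to 3.08. The bright probe set read 10.79, 10.55 and 11.23 in controls and 10.97, 10.86 and 11.13 in PRMT5_down. The difference was 0.13 (SE 0.19, 95% interval -0.33 to 0.59, and -0.10 to 0.36 with the replicate block), with 0.18, 0.31 and -0.10 within numbers 1, 2 and 3, and did not pass limma (adjusted p = 1). Without control replicate 2 it was -0.02.

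**Figure D3:**
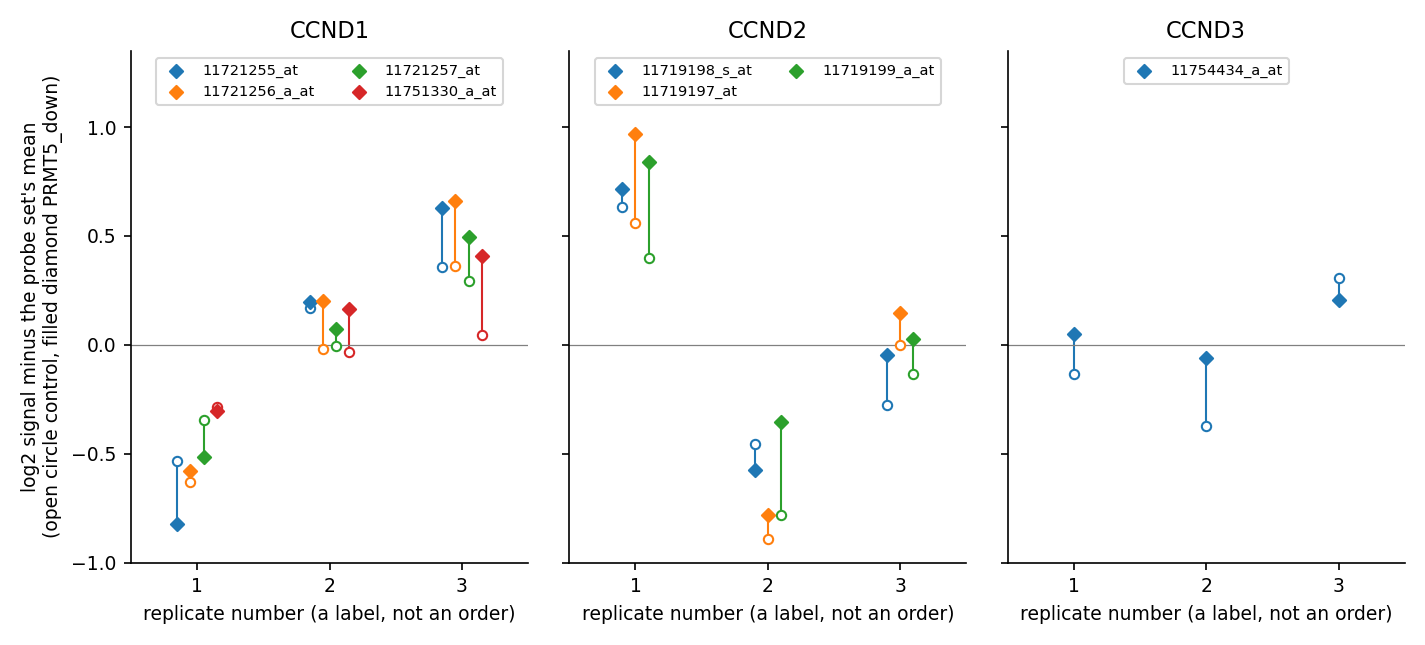
Log2 signal of the D cyclin probe sets above background on at least 1 array, each minus its own mean, by replicate number, with an open circle for control, a filled diamond for PRMT5_down and a line joining the arrays of a number. All 4 probe sets of CCND1 are low in number 1, where all 3 of CCND2 are high, and for both genes the arrays of a number lie closer together than the lowest and highest numbers.

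MAF was not above background on any array with any of its 4 probe sets. The brightest, 11733086_a_at, read 4.53, 4.25 and 4.48 in controls and 4.36, 4.54 and 4.49 in PRMT5_down, and the means of the other 3 lay between 2.31 and 3.32. Differences between groups ran from -0.17 to 0.04 over the 4 probe sets, at levels where a signal is not told from background. MYC had 1 probe set, 11745021_a_at, and varied little between arrays. It read 11.27, 11.10 and 11.25 in controls and 11.14, 11.16 and 11.32 in PRMT5_down. The difference was 0.00 (SE 0.10, 95% interval -0.23 to 0.23, and -0.20 to 0.20 with the replicate block), with -0.13, 0.06 and 0.07 within the numbers, and did not pass limma (adjusted p = 1).

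No member passed the comparison of PRMT5_down with control. In the fit without the block, limma's adjusted p was the same for every gene and every probe set, so it sets no member apart. Limma called 0 of the 7 genes and 0 of their 28 probe sets at an adjusted p under 0.05, where it called 0.0% of all genes and 0.0% of all probe sets. At an unadjusted p under 0.05 it had 0 of the 28, against 0.956% of all probe sets and 0.822% of all genes. With the replicate block it had 2 of the 28, both of CCND2, against 8.64% of all probe sets, and called 0.0% of all probe sets and of all genes. The groups did not overlap for 0 of the 28, against 3.89% of all probe sets. PRMT5_down was higher in all 3 numbers for 6 of the 28 and lower in all 3 for 5, against 12.7% and 14.2% of all probe sets. On the mean of the 3 numbers 16 were higher, 11 lower and MYC level. The median difference was 0.04 over the 28 and -0.01 over all probe sets. The two-sided exact permutation test over arrays cannot go below p = 0.1 with 3 against 3.

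**Figure D4:**
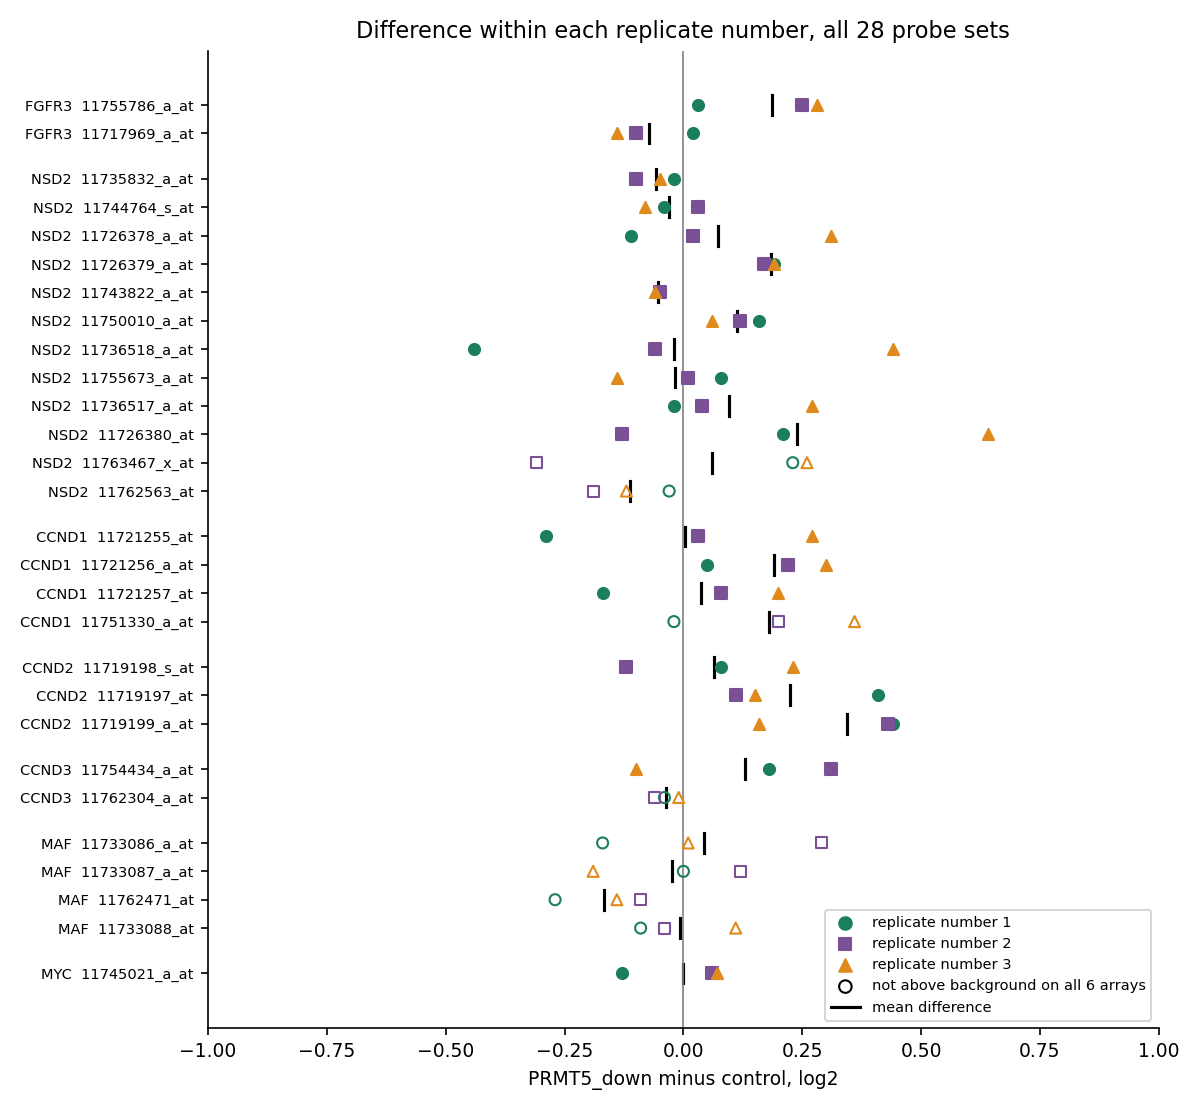
PRMT5_down minus control on the log2 scale within replicate numbers 1, 2 and 3 for each of the 28 probe sets, with a black tick for the mean and open markers for probe sets not above background on all 6 arrays. The widest gap is that of 11726380_at of NSD2 in number 3, at 0.64.

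For the brightest probe sets of CCND1, CCND2, CCND3 and MYC the number means spread further than any gap between groups within a number, and for those of FGFR3, NSD2 and MAF they did not. In the fit with both terms, a limma F test between numbers, chosen after the values were seen, called 3 of the 7 genes, CCND1 (adjusted p = 0.0018), CCND2 (0.00096) and CCND3 (0.041), against 35.1% of all genes and 54.9% of those above background on all 6 arrays. Of the 28 probe sets it called 13, all 4 of CCND1, all 3 of CCND2, 5 of NSD2 and 1 of CCND3, against 34.0% of all probe sets. Of the 20 above background on all 6 arrays it called 11, against 54.6%. The members' share was thus near that of other probe sets with signal, but NSD2 alone made up 10 of the 20 and 4 of the 11. No probe set of FGFR3 or MYC was called. Between the highest and lowest number, the means lay 1.19 apart for the brightest probe set of CCND2, 1.17 for that of CCND1, 0.48 for that of CCND3, 0.20 for that of FGFR3, 0.16 for MYC and 0.07 for that of NSD2. The spread between number means was larger than every gap between groups within a number for 20 of the 28, against 57.2% of all probe sets. It was so for 17 of the 20 above background on all 6 arrays. The share among all probe sets above background was not computed, so no excess of the members is read from this. What arrays of a number have in common is not stated in the labels.

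Over the 6 arrays, the genes whose centred signals lay closest to a member's were found among 10200 genes above background on all 6, by the root mean square difference in log2 units. CCND1 was closest to RDH13 (0.06) and MRPL57 (0.06), CCND2 to LIMA1 (0.06) and TRPC1 (0.08), and CCND3 to ZNRF1 (0.04) and RCAN1 (0.06). LIMA1 for example read 8.40, 7.24 and 7.51 in controls and 8.61, 7.24 and 7.77 in PRMT5_down, high in number 1 like CCND2. FGFR3 was closest to ZNF101 (0.04) and MDK (0.04), NSD2 to PEX19 (0.02) and FAM120C (0.03), and MYC to PIGS (0.02) and GOT2 (0.02). For NSD2 and MYC, which varied by only 0.04 and 0.08 about their own means, closeness says little more than that these genes were level too.

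Genes around the members were taken from 7 lists, and limma called 0 of 97 genes measured in them, against 0.0% of all genes. Read by their brightest probe sets, none had an unadjusted limma p under 0.05 (0.822% of all genes), and 15 had one with the replicate block (8.25% of all genes). The median difference of the 97 was 0.01, against -0.02 over all genes. The groups did not overlap for 3 of the 97, against 3.92% of all genes. With the block the 95% interval was 0.07 to 0.46 for NSD3, 0.0057 to 0.44 for NSD1, 0.06 to 0.44 for MXI1, 0.01 to 0.39 for SLBP and -0.37 to -0.00052 for ETV5, with limma adjusted p between 0.56 and 0.60. The genes without overlap were NSD1 and NSD3 from the NSD2 family and IL17RD, a membrane inhibitor of FGF signalling that was not above background on any array and is named after its values were seen.

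In FGF receptor signalling, 20 of 27 genes measured were above background on all 6 arrays, 11 were higher, 15 lower and 1 level, 0 passed, and the median difference was -0.02. The receptor FGFR1 differed by -0.09 (SE 0.09) from means close to background, and the feedback inhibitors SPRY2 and SPRY4 by -0.02 (SE 0.09) and -0.14 (SE 0.38). The transcription factor ETV5, a target of the pathway, read 9.23, 8.72 and 9.33 in controls and 9.09, 8.55 and 9.09 in PRMT5_down, a difference of -0.18 (SE 0.22). Without PRMT5_down replicate 2 it was -0.0033, and without control replicate 2 -0.37. The phosphatase DUSP6, another target, was not above background on any array, at 3.20 to 3.31. FRS2 and NRAS were not analysed here.

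Among 15 genes of the NSD2 family and of the H3 mark it writes, all above background on all 6 arrays, 11 were higher and 4 lower, 0 passed, and the median difference was 0.11. The relative NSD3 read 7.50, 7.42 and 7.38 in controls and 7.89, 7.68 and 7.53 in PRMT5_down. All 3 PRMT5_down arrays were above all 3 controls, by 0.27 on average (SE 0.11, limma adjusted p = 1). With the most variable probe set of NSD3 in place of the brightest, the difference was -0.03. NSD1 read 6.85, 6.89 and 6.83 in controls and 7.04, 6.95 and 7.25 in PRMT5_down, also without overlap, a difference of 0.22 (SE 0.10, limma adjusted p = 1), which was 0.14 without PRMT5_down replicate 3. SETD2, which adds a further methyl group, differed by 0.24 (SE 0.19), or by 0.05 without control replicate 3. With its most variable probe set SETD2 differed by 0.64 (SE 0.12), and with the mean of its probe sets by 0.36 (SE 0.13). Neither was called. The demethylase KDM2A differed by 0.16 (SE 0.17). The 5 neighbours of FGFR3 and NSD2 on chromosome 4 were all above background, 3 were higher and 2 lower, and 0 passed. The histone mRNA binding protein gene SLBP differed by 0.20 (SE 0.17), the spindle gene TACC3 by -0.01 (SE 0.25), the mitochondrial gene LETM1 by 0.05 (SE 0.24) and NELFA, of a complex that pauses RNA polymerase II, by 0.08 (SE 0.21). The fifth neighbour, TMEM129, had the lowest difference of the list, at -0.28.

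Of 20 partners, inhibitors and targets of the D cyclins 18 were above background on all 6 arrays, 12 were higher and 8 lower, 0 passed, and the median difference was 0.05. CDK4 read 11.37, 11.07 and 11.96 in controls and 11.31, 11.11 and 11.72 in PRMT5_down, a difference of -0.09 (SE 0.27). CDK6 read 9.26, 8.34 and 8.20 in controls and 9.36, 8.13 and 8.45 in PRMT5_down, a difference of 0.05 (SE 0.41). As with CCND2, both arrays of number 1 were the highest for CDK6. The inhibitor CDKN1B differed by -0.15 (SE 0.15), the retinoblastoma gene RB1 by 0.11 (SE 0.27), its target factor E2F1 by 0.05 (SE 0.16) and the next cyclin, CCNE1, by -0.08 (SE 0.15). CDKN2C was not analysed here.

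In the MAF list, 2 of 8 genes measured were above background on all 6 arrays and 4 on none, 3 were higher and 5 lower, 0 passed, and the median difference was -0.04. MAFG, a small MAF protein that lacks the activating domain, was bright on each array, at 9.73 to 10.04, with a difference of 0.03 (SE 0.12). The integrin gene ITGB7, which MAF raises in myeloma, was above background on 1 array.

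Of 11 genes of the MYC network 10 were above background on all 6 arrays, 8 were higher and 3 lower, 0 passed, and the median difference was 0.03. The obligate partner MAX differed by -0.04 (SE 0.24), the antagonists MXI1 and MNT by 0.25 (SE 0.30) and 0.13 (SE 0.14), and MYCN, which stayed under background, by -0.18 (SE 0.10). MYCL, above background on all 6 arrays, had the lowest difference of the list, at -0.41 (SE 0.32). With the replicate block its unadjusted limma p was 0.015 and its adjusted p 0.56. Of 11 MYC target genes 4 were higher and 7 lower, 0 passed, and the median difference was -0.02, with the polyamine enzyme gene ODC1 at 0.15 (SE 0.22) and the nucleolar gene NCL at 0.00 (SE 0.14).

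**Figure D5:**
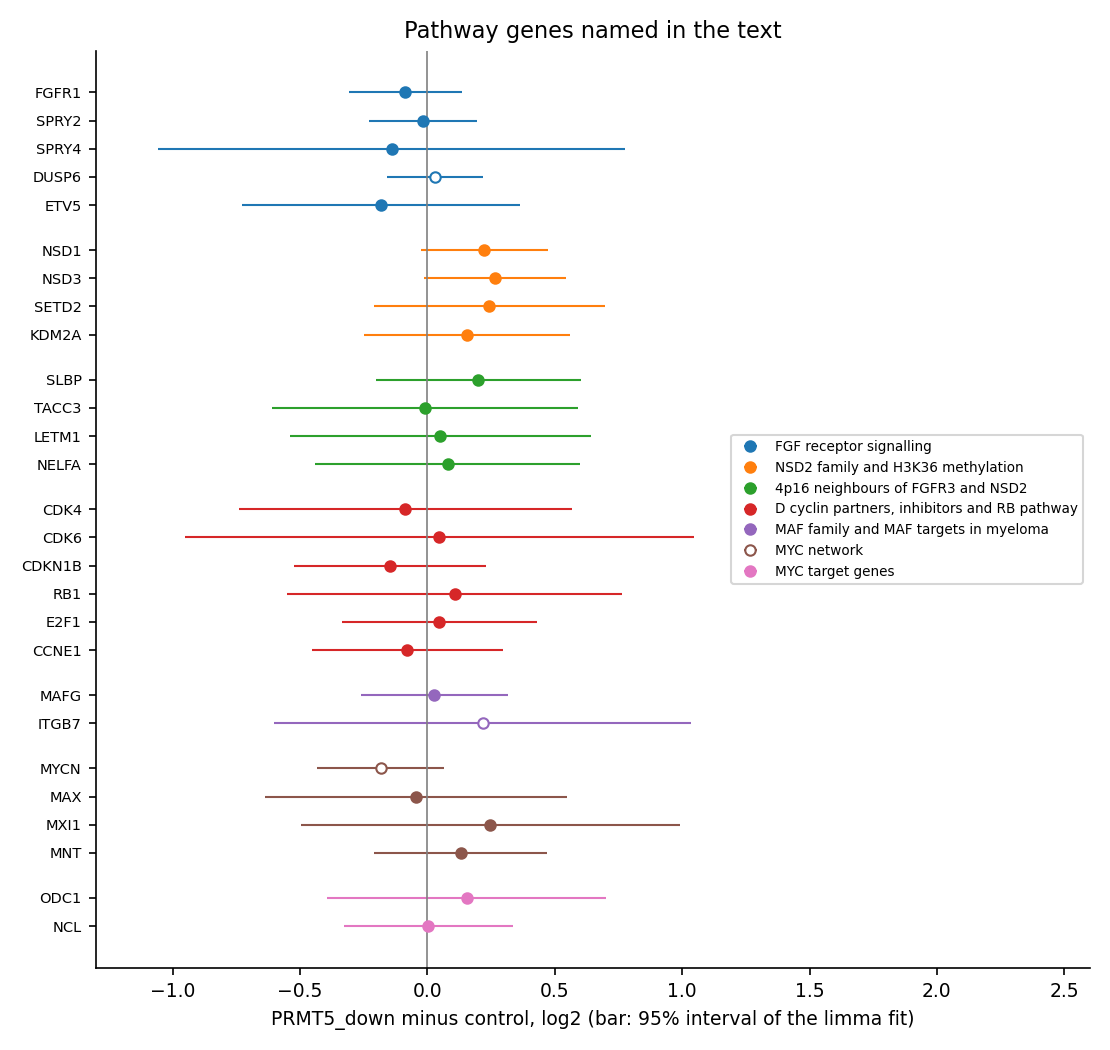
PRMT5_down minus control on the log2 scale for the genes set down by name for the 7 lists, with the 95% interval of the limma fit as bars and open markers for genes not above background on all 6 arrays. The bars are from the fit without the replicate block and all include 0, as those of NSD1 (-0.03 to 0.47) and NSD3 (-0.01 to 0.55) do; with the block the intervals of NSD3, NSD1, MXI1, SLBP and ETV5 do not, and none of these genes passed over all genes.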

How the data were processed

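RNA of 6 samples was hybridised to 1 Affymetrix array each. Each deposited table holds log2 signals, 1 per probe set, which the authors obtained by RMA, per the submitters' processing notes. Its version was not given in the sources used here. Because RMA equalises arrays, a shift common to most genes is not visible. Of 49372 probe sets 79 were controls, 1832 had several symbols, 2473 were unnamed here and 44988 had 1 symbol, updated through gene identifiers for 44961.

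Groups were compared by limma 3.58.1 (lmFit, eBayes; R 4.3.3) without block or filter, over 18132 genes by their brightest probe set and over all 44988 probe sets, with Benjamini-Hochberg adjustment at 0.05. Values of members come from the fit over probe sets, those of PRMT5 and list genes from the fit over genes. The fits were tested on simulated data. Deviations from group means correlated at 0.82, 0.72 and 0.79 across genes between arrays of the same number, which pairs the arrays by the data and not by the labels. The values printed are nevertheless from the fit without the block, and the block is an alternative, named where used. The SE printed therefore include the spread between numbers. For CDK6 the SE was 0.41 without and 0.10 with the block, and for CDK4 0.27 and 0.088. For genes that varied little it was about the same, as for DUSP6 with 0.077 and 0.080.

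The members and lists were chosen with earlier results of these data known. Named were all members, PRMT5, genes set down for each list whatever their values, and the 2 genes closest to each member above background. Outside this rule, IL17RD, TMEM129, MYCL and the marker genes named, such as AHSP, HBB and PRG2, were picked from fixed lists with their values seen. Alternatives were the block, normalization, filters, variance model, array weights, choice of probe set, background and left-out arrays. The F test between numbers and 1 further variance model were added after values were seen. The 3 arrays per group limit the precision.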

Additional observations from a re-analysis of the deposited data

How the results depend on the processing

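Limma called 0 genes, 0 probe sets and 0 list genes in the fits reported, with the replicate block, another quantile normalization, filters on dim signals, trend and robust variances, array weights, other choices of probe set and each array left out. In the fits reported, 149 genes and 430 probe sets had an unadjusted limma p under 0.05. With the replicate block, 1496 genes and 3888 probe sets had one. The replicate block alone changed no call. With the replicate block, trend and robust, chosen after seeing the data, limma called 3 genes and 6 probe sets, PRMT5 among the genes (-0.98, adjusted p = 0.029) and 0 list genes or member genes. PRMT5 ran from -1.19 to -0.68 with 1 array left out. The 6 member genes above background were 5 at the 99th percentile of olfactory receptor genes and 3 where every probe set had to be above it.

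Signs turned as follows, none of them called, and the cause was not tested. With the mean of probe sets, NSD2 was at 0.040, MAF at -0.038, DUSP6 at -0.016, MAX at 0.0053 and NCL at -0.015. With the most variable probe set, NSD2 was at 0.073, MAF at -0.17 and NSD3 at -0.033. Without a change of sign, SETD2 moved from 0.24 to 0.64 with the most variable probe set and to 0.36 with the mean of probe sets. It moved to 0.075 with array weights. NSD1 moved from 0.22 to 0.097 with the mean of probe sets. With array weights, CCND2 was at -0.24, TACC3 at 0.11, CDK6 at -0.28, RB1 at -0.042, MAFG at -0.023 and MAX at 0.038. After quantile normalization again CCND1 was at -0.027.

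With 1 array left out, CCND1 ran from -0.31 to 0.42, CCND2 from -0.28 to 0.40, CCND3 from -0.02 to 0.32 and MAF from -0.04 to 0.10 (signs turned without control 1 or PRMT5_down 2 or 3 for CCND1, control 2 or 3 or PRMT5_down 1 for CCND2, and control 2 for CCND3 and MAF), while FGFR3 ran from 0.12 to 0.24, NSD2 from -0.09 to -0.03 and MYC from -0.06 to 0.03. Among the list genes that turned, the ranges were -0.077 to 0.013 for SPRY2, -0.48 to 0.14 for SPRY4, -0.0067 to 0.048 for DUSP6, -0.0067 to 0.25 for KDM2A, -0.20 to 0.21 for TACC3, -0.14 to 0.22 for LETM1, -0.073 to 0.24 for NELFA, -0.29 to 0.16 for CDK4, -0.31 to 0.38 for CDK6, -0.12 to 0.33 for RB1, -0.072 to 0.15 for E2F1, -0.21 to 0.0033 for CCNE1, -0.04 to 0.12 for MAFG, -0.13 to 0.42 for ITGB7, -0.21 to 0.18 for MAX, -0.012 to 0.46 for MXI1, -0.025 to 0.32 for ODC1 and -0.09 to 0.13 for NCL. Among those that did not turn, ETV5 ran from -0.37 to -0.0033, SETD2 from 0.05 to 0.38, NSD1 from 0.14 to 0.29, NSD3 from 0.17 to 0.35, SLBP from 0.095 to 0.35, CDKN1B from -0.27 to -0.038, MNT from 0.017 to 0.20, FGFR1 from -0.13 to -0.033 and MYCN from -0.26 to -0.13. Signals near background limit MAF, DUSP6, MYCN and ITGB7.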
